A study of Mus musculus with 16 samples.

Results

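The genes of the mitochondrial respiratory chain and the ATP synthase were followed in bone-marrow-derived dendritic cells of NZM2410 mice, a strain that develops lupus-like kidney disease. Rows were taken by symbol: Nduf followed by a, b, c, s or v and a digit, Uqcr, Cox4 to Cox8, Atp5, and the succinate dehydrogenase genes Sdha, Sdhb, Sdhc and Sdhd, with rows ending in -ps left out. This gave 84 of the 24001 rows of the table, 35 for complex I, 4 for complex II, 8 for complex III, 20 for complex IV and 17 for complex V. Ndufa4 and Ndufa4l2 were placed with complex IV, where the Ndufa4 protein is found. Atp5s and Atp5sl carry the ATP synthase name without being subunits of it.

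Whole marrow was cultured with GM-CSF at 20 ng/ml and IL-4 at 10 ng/ml and harvested on day 7, and cells received vehicle or, for 24 hours, loxoribine (a TLR7 agonist, listed at 200 µmol/ml) together with CpG at 1 µg/ml (a TLR9 agonist). The 4 arms were WT mice, KO mice labelled ERKO Shrt (a truncated estrogen receptor alpha) without surgery, ERKO OVX mice with the same short receptor, and Ex3a OVX mice, the receptor null by their source label. Both OVX arms had been ovariectomized at 4 to 8 weeks of age and then carried a 0.25 mg, 90-day estradiol pellet. Each arm has a vehicle and an agonist group of 2 libraries, 16 libraries in all, where the labels speak of triplicates. Genotype labels do not follow the source labels: the null allele is named for the KO and ERKO OVX vehicle libraries and the short allele for both Ex3a OVX groups, so group names here are those of the source labels. Esr1, the targeted gene, was at 0.684 to 1.38 FPKM (WT), 1.77 to 2.57 (KO), 0.982 to 1.16 (ERKO OVX) and 0.283 to 0.364 (Ex3a OVX), and a value for the whole gene does not show which exons are missing.

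Values are FPKM, fragment counts scaled to transcript length and library size, so levels of different genes are compared per length. The ovariectomized libraries stand apart: their FPKM sum was 612322 to 696321 against 481738 to 522287 in the unoperated ones, and their estimated depth was 17.5 to 23.4 against 36.2 to 42.8 M fragments. Paired ovariectomized libraries differed by no more than counting noise (variance 0.837 to 1.01 times the sampling variance, against 2.05 to 5.27 in unoperated pairs), so each such pair entered the tests as 1 sample, assumed to vary like the unoperated groups. Nothing in the labels says that paired libraries came from separate mice or cultures, and p-values then measure only the spread between these samples. The culture is mixed: 9 dendritic cell markers summed to 6172 to 7952 FPKM in unoperated and 11560 to 15624 in ovariectomized libraries, a sum carried by Cd74 and the MHC class II genes. Other genes of that list went against it: Zbtb46 was at 13.1 to 27.8 FPKM in unoperated and 2.65 to 4.69 in ovariectomized libraries, and Ccr7 at 1120 to 2205 and 205 to 508. The 9 neutrophil markers summed to 50.6 to 119.8 in unoperated, 1145 to 1299 in ERKO OVX and 295 to 306 in Ex3a OVX libraries. That sum is carried by S100a8 and S100a9. Between the ovariectomized arms Prtn3 went the other way, at 4.65 to 7.14 FPKM in ERKO OVX and 7.93 to 19.2 in Ex3a OVX, as did Ltf with vehicle. The 6 macrophage markers in the table summed to 766 to 952 FPKM in WT, 204 to 282 in KO, 397 to 464 in ERKO OVX and 1222 to 1501 in Ex3a OVX libraries, and 5 mast cell and basophil markers to 1.18 to 1.81 in unoperated, 58.2 to 78.8 in ERKO OVX and 18.2 to 27.0 in Ex3a OVX libraries.

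As background, complexes I and II take electrons from NADH and succinate and hand them to ubiquinone, complex III passes them to cytochrome c, and complex IV reduces oxygen. Complexes I, III and IV pump protons, and complex V uses the gradient to make ATP. Most subunits are encoded in the nucleus, a few core ones in mitochondrial DNA, and none of the 13 mitochondrially encoded genes is in the table analysed here. Dendritic cells that sense TLR ligands are known to raise glycolysis and, after sustained stimulation, to lower respiration.

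Nuclear respiratory factor 1 (NRF1) and ETS-family factors are textbook regulators of these promoters, and the windows below are shown because they carry the NRF1 or the ETS core motif in genes described later. They are RefSeq sequences on GRCm38.p6, 120 bases each, written 5′ to 3′ on the gene's strand: Ndufa11 at chr17:56717642-56717761 (plus), Uqcr11 at chr10:80406824-80406943 (minus), Cox6a1 at chr5:115349056-115349175 (minus) and Atp5g2 at chr15:102671048-102671167 (minus). Capitals mark CCGGAAGT for ETS in Uqcr11 and the NRF1 core GCATGCGC, on both strands and so as an overlapping pair, in the other 3. The Ndufa11 window overlaps exon bases of Vmac on the other strand, and Uqcr11 has an NRF1 core across its start site, beyond the window.
Ndufa11: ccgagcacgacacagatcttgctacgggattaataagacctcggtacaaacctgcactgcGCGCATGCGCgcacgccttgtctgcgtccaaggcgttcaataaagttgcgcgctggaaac
Uqcr11: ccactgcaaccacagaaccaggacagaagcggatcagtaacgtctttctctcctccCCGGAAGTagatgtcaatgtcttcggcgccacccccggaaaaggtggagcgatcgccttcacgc
Cox6a1: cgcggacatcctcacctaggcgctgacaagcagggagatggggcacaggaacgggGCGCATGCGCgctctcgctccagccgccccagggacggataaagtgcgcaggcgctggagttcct
Atp5g2: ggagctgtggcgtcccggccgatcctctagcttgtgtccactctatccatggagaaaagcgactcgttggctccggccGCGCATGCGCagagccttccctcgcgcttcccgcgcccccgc

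Promoters of 66 subunit genes, 71 in all, were searched on both strands from 250 bases before to 50 after the start site. GCATGCGC stood in 14.1% of them (10 genes, Sdhb and Ndufa6 among them), against 5.35% of the promoters of all genes tested and 2.71% of all promoters. The ETS core CCGGAAGT stood in 7.04% (5 genes) against 8.38% and 3.89%, and AAGATGGC, the core of the YY1 motif, in 12.7% against 4.62% and 2.75%. TCAAGGTCA, bound by estrogen-related receptors, was in the promoters of Atp5g3 and Sdhd, 2.82% against 0.273% and 0.423%. A match describes these letters and not a site in use.

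These were abundant messages. Of the 84 genes, 79 passed the filter of 1 FPKM in at least 2 libraries. Cox4i2, the hypoxia isoform of subunit 4, Ndufa4l2, Cox7b2, Cox8b and Cox8c did not pass, and Cox7b2, Cox8b and Cox8c were listed at 0 in every library. Mean levels over the 16 libraries ran from 1.02 (Cox6b2, the testis form of subunit 6b) to 706.8 FPKM (Cox8a) in complex IV, from 1.26 (Atp5s) to 611.5 (Atp5b, the catalytic beta subunit) in complex V, from 79.5 (Uqcrc2, a core protein) to 362.3 (Uqcrh, the hinge protein) in complex III, from 91.4 (Sdha, the flavoprotein) to 169.5 (Sdhd, a membrane anchor) in complex II, and from 16.6 (Ndufa11) to 263.2 (Ndufa3) in complex I. The median member was at 75.1 FPKM in complex I, 132.7 in II, 163.1 in III, 252.2 in IV and 209.4 in V. Together the genes made up 1.99% to 2.17% of the FPKM sum in unoperated and 2.34% to 2.59% in ovariectomized libraries, and these ranges do not overlap. In bulk cultures fewer cells of a type and less RNA per cell cannot be told apart.

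**Figure D1:**
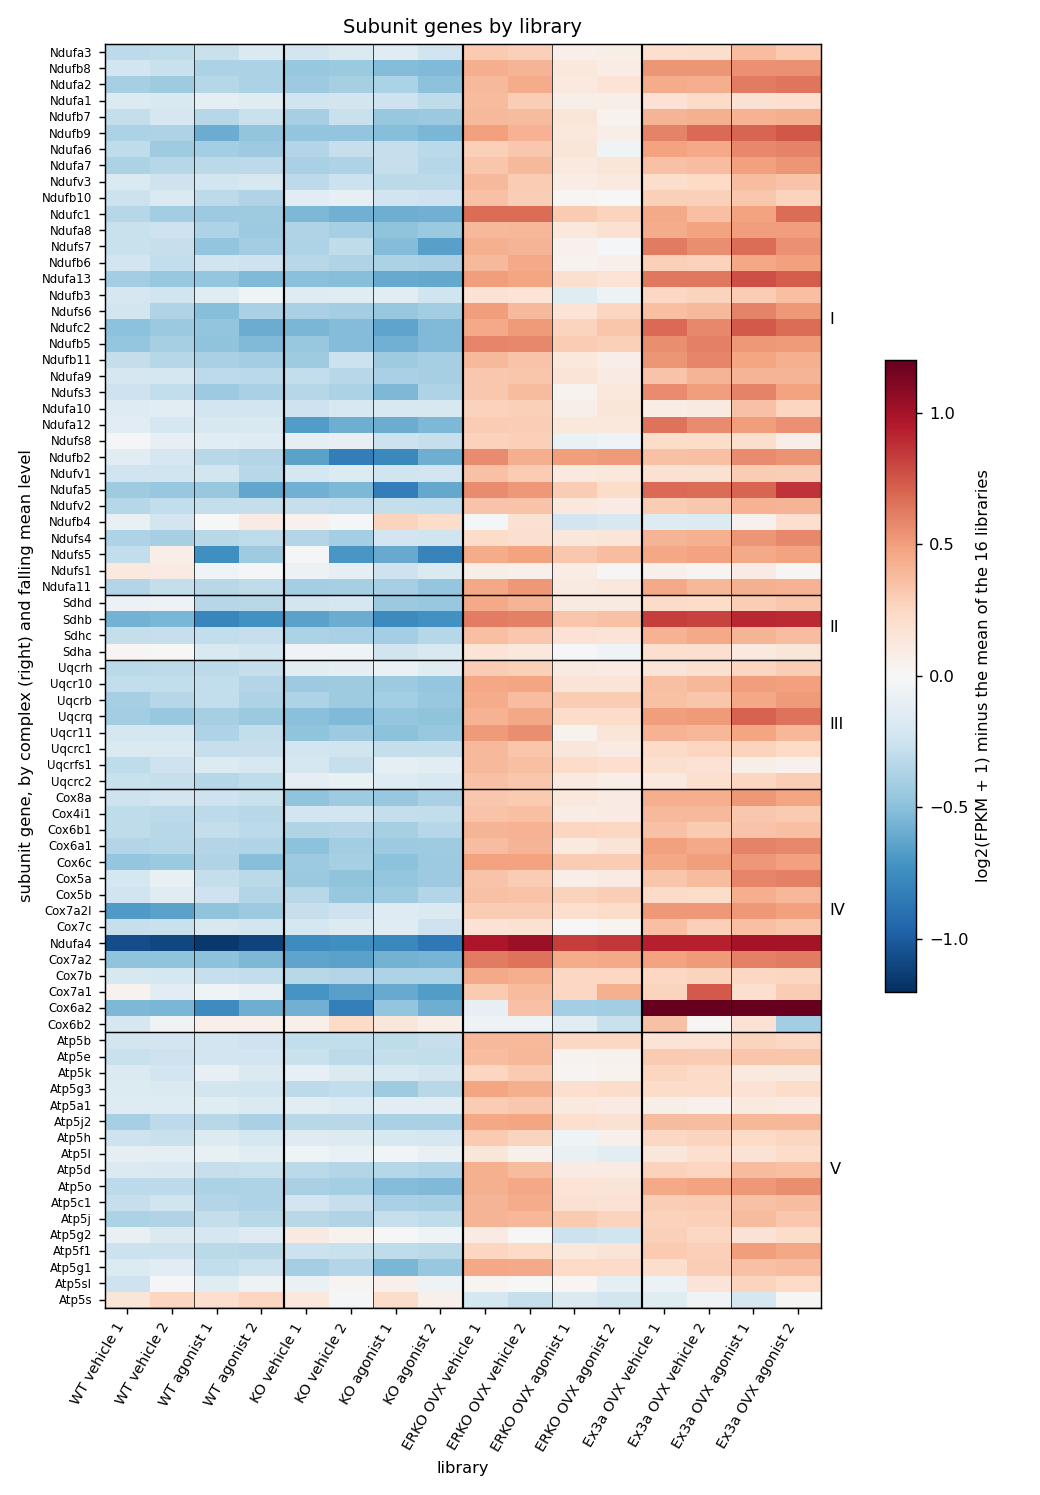
Heat map of 78 of the 79 tested subunit genes (rows, by complex and falling mean level) in the 16 libraries (columns); colour is log2(FPKM + 1) minus the gene's mean over the libraries and saturates at 1.2. The ovariectomized libraries on the right are above the mean for most genes, the ERKO OVX agonist pair less so, and Ndufa4 and Cox6a2 have the widest range.

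In WT cells the agonists left most subunit genes near their vehicle level, and complex II fell. At an adjusted p of 0.05 (limma on log2(FPKM + 1), Benjamini-Hochberg over 11347 genes) 28 of 79 members differed, 5 higher and 23 lower, where 57.8% of all genes tested did (30.8% higher, 27.0% lower). The median of the members was -0.03 on the log2 scale, of all genes 0.02. Sdhd stood at 158 and 159 FPKM with vehicle and 131 and 132 with agonist, a change of -0.27 ± 0.02 (SE, adjusted p = 1.98e-06). Its libraries did not overlap, as for 36 of 79 members that lay below vehicle in WT, against 35.9% of all genes. Sdha (91.9 and 91.4 to 79.8 and 77.3 FPKM) changed by -0.22 and Sdhb, the iron-sulfur subunit (95.1 and 96.7 to 82.0 and 85.2), by -0.20. Sdhc, the other anchor, was level (84.8 and 85.5 against 84.2 and 85.3).

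Several nuclear core subunits of complex I, the ones that carry its flavin and iron-sulfur clusters, fell in WT cells: Ndufs7 by -0.17, Ndufs1 by -0.15, Ndufs3 by -0.14 and Ndufs8 by -0.09. Ndufv1 and Ndufv2 had changes of -0.03 and 0.03, not past the threshold. The 5 members that rose were Cox7a2l, Ndufb4, Ndufb3, Uqcrfs1 and Atp5h. Cox7a2l, a factor of respiratory supercomplexes, went from 151 and 155 to 172 and 179 FPKM (0.20 ± 0.03, adjusted p = 8.84e-05). Ndufb4, an accessory subunit of the membrane arm, went from 38.7 and 35.4 to 41.1 and 44.2 FPKM (0.20), a call that was lost without the second vehicle library (0.14) and under the TPM scaling described next (0.11). Uqcrfs1, the Rieske protein of complex III, rose by 0.10 and lost its call without the first library of either group (0.07 and 0.09) and under TPM (0.01). With the libraries scaled to 1 sum (TPM, each FPKM value divided by the sum of its library), the count became 57, 1 higher and 56 lower, with the median of all genes at -0.06, so the number of members that fell in WT cells depends on the scaling while the fall of Sdha, Sdhb and Sdhd passed under each alternative tried.

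In KO cells, with the short receptor, complex II fell too, again without Sdhc. Of 79 members 23 differed, 6 higher and 17 lower, against 51.3% of all genes (25.9% higher, 25.3% lower), with a median of -0.03. Without the first or the second KO vehicle library 15 members passed. Sdhd changed from 142 and 143 to 121 and 121 FPKM (-0.23 ± 0.02, adjusted p = 7.12e-06), Sdha by -0.17 and Sdhb by -0.13, and Sdhc by 0.01. Ndufs7 changed most among the core subunits (62.8 and 65.8 to 56.2 and 51.3 FPKM, -0.26). Ndufb4 rose from 42.8 and 40.8 to 50.1 and 48.5 FPKM (0.23), as did Cox7a2l, from 200 and 203 to 217 and 214 (0.10), a call lost without the first vehicle library (0.09). In both arms 14 members fell (17.7%, against 20.9% of all genes). The difference of the responses, KO minus WT, was past the threshold for 0 of 79 members with limma, against 6.98% of all genes (2.31% higher, 4.67% lower), and 13 members had an unadjusted p under 0.05 (16.5%, against 21.9% of all genes). Its median was 0.01. Under TPM scaling 11 members passed, and 3 with the libraries entered separately.

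In ERKO OVX cells the agonists lowered nearly the whole chain. Of 79 members 67 fell and 0 rose, where 37.5% of all genes differed and 19.2% were lower (18.3% higher). The median member changed by -0.24, against 0.00 for all genes. The FPKM sum fell too, from 652417 and 649892 with vehicle to 613251 and 612322 with agonist, so the size of the fall depends on scaling. As a share of that sum the members went from 2.58% and 2.59% to 2.34% and 2.35%. By complex, 30 of 35 tested members fell in complex I, 4 of 4 in II, 7 of 8 in III, 11 of 15 in IV and 15 of 17 in V. The medians were -0.26 in complex I, -0.23 in II, -0.23 in III, -0.18 in IV and -0.25 in V.

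Uqcr11, a small subunit of complex III whose promoter is printed above, changed from 188 and 194 to 136 and 145 FPKM (-0.44 ± 0.04, adjusted p = 8.02e-05). Ndufs7, which holds the last iron-sulfur cluster before ubiquinone, went from 110 and 108 to 84.3 and 80.3 FPKM (-0.40), and Ndufc1 from 154 and 154 to 120 and 116 (-0.38). Ndufa11, with the NRF1 core in its promoter, went from 22.5 and 23.4 to 17.4 and 17.6 FPKM (-0.38). The vehicle and agonist libraries do not overlap for any of these genes. In this arm both agonist libraries lay below both vehicle libraries for 74 of 79 members. Of all genes 37.4% lay below in this way and 38% above. Paired libraries in this arm differed by no more than counting noise, so such non-overlap sets 1 sample against 1 and shows no agreement of replicates. In complex V the epsilon subunit Atp5e (541 and 553 to 431 and 433 FPKM) changed by -0.34 and the delta subunit Atp5d by -0.31. All 4 succinate dehydrogenase genes fell: Sdhd by -0.32, Sdhb by -0.27, Sdhc by -0.18 and Sdha by -0.17. Cox4i1, the main isoform of subunit 4, changed from 806 and 821 to 679 and 683 FPKM (-0.26). Ndufb4 fell by -0.30 here (40.9 and 47.2 to 35.1 and 36.1 FPKM), as did Uqcrfs1 by -0.16, both of which rose in WT and KO cells (Uqcrfs1 in KO by a call lost without the second vehicle library, at 0.09). The 12 members that did not pass were Ndufa5, Ndufb2, Ndufs1, Ndufs4, Ndufs5, Uqcrb, Cox5b, Cox6b2, Cox7a1, Cox7a2l, Atp5s and Atp5sl, with changes between -0.28 and 0.05.

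In Ex3a OVX cells more members rose than fell. Of 79 members 23 differed, 21 higher and 2 lower, against 37.3% of all genes (19.1% higher, 18.2% lower), with a median of 0.06 against 0.01. Ndufb4 rose from 37.2 and 36.7 to 43.0 and 47.7 FPKM (0.29), Cox5a from 334 and 344 to 398 and 402 (0.24), Ndufa10 from 63.3 and 64.2 to 76.1 and 71.4 (0.21) and Uqcrq from 254 and 256 to 293 and 282 (0.17). Cox5a sits at the matrix side of complex IV and Uqcrq at the base of cytochrome b. Sdhd rose by 0.09 (194 and 193 to 204 and 208 FPKM), a call lost without the second agonist library (0.07) and under TPM (0.01). The 2 that fell were Uqcrfs1 (-0.12), lost without the first vehicle (-0.11) or the second agonist library (-0.11), and Cox7a1 (-0.27), lost without the second vehicle (-0.02) or the first agonist library (-0.21). The direction of this response depends on scaling: under TPM 16 members passed, 5 higher and 11 lower, with the median member at -0.01 and the median of all genes at -0.05.

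**Figure D2:**
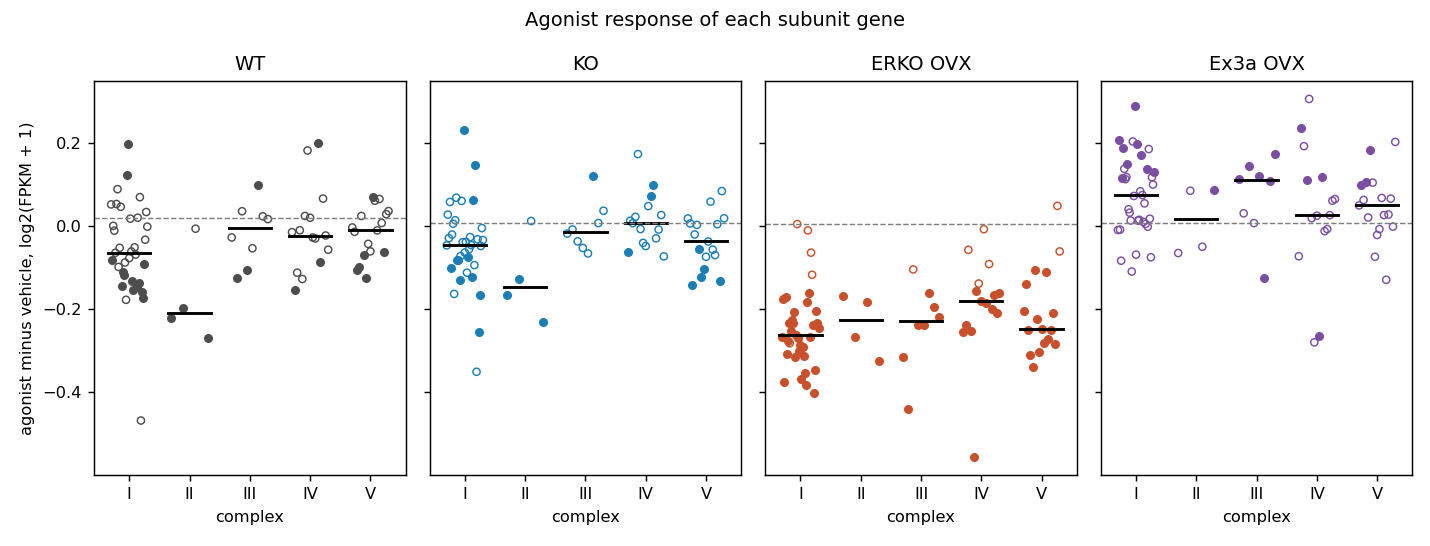
Agonist minus vehicle in log2(FPKM + 1) for each tested subunit gene, by complex and arm; filled points passed the adjusted p of 0.05, open points did not, black bars are medians of the complex and the dashed line is the median of all genes tested. In ERKO OVX all 5 medians lie between -0.26 and -0.18, and in Ex3a OVX all 5 lie above 0.

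The 2 ovariectomized arms differed in their response. The difference, Ex3a OVX minus ERKO OVX, was past the threshold for 60 of 79 members, all higher, where 31.3% of all genes were called (16.6% higher, 14.7% lower), and its median was 0.28 against 0.00. By complex 27 of 35 members passed in I, 2 of 4 in II, 7 of 8 in III, 10 of 15 in IV and 14 of 17 in V. Among the largest were Ndufb4 (0.59 ± 0.10, adjusted p = 0.0018), Ndufb6 (0.57 ± 0.05, 0.000164) and Ndufc1 (0.55 ± 0.06) in complex I, Uqcr11 (0.47 ± 0.06) in III, Cox6a2 (0.86 ± 0.18) and Cox5a (0.47 ± 0.07) in IV, and Atp5d (0.42 ± 0.04) in V. Cox6a2, a message near the filter limit, lost its call at a pseudocount of 0.1 FPKM. Cox6a1, the widely expressed form of subunit 6a and another promoter with the NRF1 core, went from 571 and 588 to 480 and 493 FPKM in ERKO OVX and from 624 and 606 to 667 and 659 in Ex3a OVX (difference 0.36 ± 0.05, and 0.15, no longer past the threshold, corrected for mean level). In all, 19 members fell in ERKO OVX and rose in Ex3a OVX (24.1%, against 2.83% of all genes), where the rise turns direction under TPM, as above. Under TPM the count was 32 (31 higher, 1 lower), with the median member at 0.12 and that of all genes at -0.12.

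Other short, abundant messages were also lower in ERKO OVX, by a smaller median except in ribosomal proteins. The median transcript length of the subunit genes is 651 bases, and 64 of 83 with a length are under 1000. Over all genes tested the median is 2059. Lengths here are medians over a gene's annotated coding transcripts and can be shorter than the expressed message. Ndufs1, for one, has 651 bases by this measure and 2986 exon bases in all. In ERKO OVX the median response was -0.06 over all genes under 1000 bases and 0.08 over those of 4000 or more, and in other genes under 1000 bases with a mean of 50 FPKM or more it was -0.16 (519 genes), or -0.13 without ribosomal proteins (456 genes). Cytosolic ribosomal proteins, 75 of 82 of them lower, had a median of -0.26. Corrected for transcript length, 58 members passed in the ERKO OVX response, all lower (median -0.17), and 46 of 78 in the difference, 45 of them higher (median 0.20). Corrected for mean level, 46 passed in the ERKO OVX response, all lower (median -0.14), and 33 in the difference, all higher (median 0.15). In sum, ribosomal protein genes went from 64126.5 and 64001.5 FPKM with vehicle to 53150 and 53025.5 with agonist in ERKO OVX. In Ex3a OVX they went from 69125.7 and 69120.4 to 70732.6 and 70258.6. Summed neutrophil markers went from 1299 in both vehicle libraries to between 1145 and 1152 FPKM in the ERKO OVX pair. Dendritic cell markers there went from between 12961 and 13046 to between 11560 and 11572. In Ex3a OVX, dendritic cell markers fell as well, from 15624 and 15611 to 12943 and 12825 FPKM. Neutrophil markers in that arm were at 301 and 305 FPKM with vehicle and 295 and 306 with agonist. The part of transcript length and of cell makeup in the result was not tested beyond these values.

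**Figure D3:**
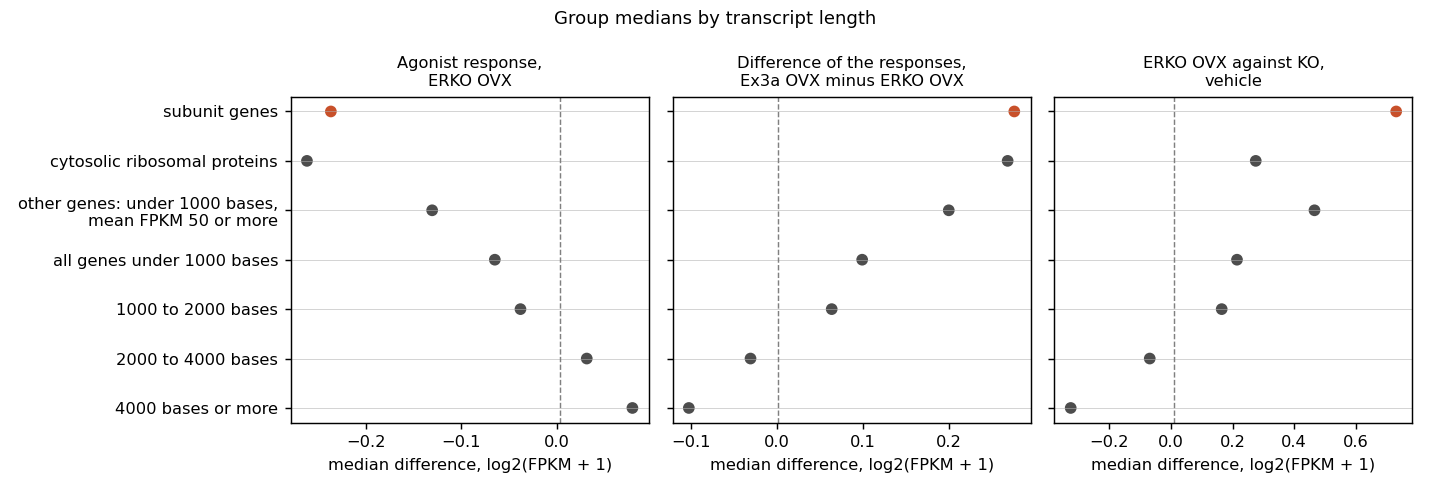
Median difference in log2(FPKM + 1) of the subunit genes (top, orange), of ribosomal protein genes, of other genes under 1000 bases with a mean of 50 FPKM or more (without ribosomal proteins), and of all tested genes in 4 classes of transcript length, in 3 comparisons; the dashed line is the median of all genes. Medians run with length in each panel, and the subunit genes lie at -0.24, 0.28 and 0.73.

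Levels with vehicle in the 2 ovariectomized arms were mixed: 39 members differed between Ex3a OVX and ERKO OVX, 15 higher and 24 lower, against 55.2% of all genes (29.2% higher, 26.0% lower), with a median of -0.02. Complex III was lower for 6 of its 8 genes, such as Uqcrfs1 (102 and 100 against 117 and 115 FPKM, -0.19), and complex V for 7 of 17, such as Atp5a1 (364 and 358 against 428 and 432, -0.25). Sdhb was higher (252 and 250 against 218 and 216 FPKM, 0.21) while Sdhd was lower (-0.21), and Ndufa12 was higher (0.31). With agonist, 64 members were higher in Ex3a OVX and 1 lower, against 62.7% of all genes called (32.1% higher, 30.6% lower), with a median of 0.28. Ndufb9 stood at 212 and 219 against 143 and 138 FPKM (0.62), Ndufs7 at 130 and 119 against 84.3 and 80.3 (0.59), Sdhb at 267 and 265 against 179 and 181 (0.56) and Atp5g2, which has the NRF1 core, at 167 and 172 against 124 and 125 (0.44). The 1 lower gene was Uqcrfs1 (-0.15). Under TPM this was 48 members, 40 higher and 8 lower, with a shift of -0.14 over all genes. The neutrophil and macrophage sums given above also part these arms, without overlap, and their part in the differences was not tested.

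Short receptor against WT without surgery moved single genes more than complexes. With vehicle 41 members differed, 13 higher and 28 lower in KO (60.3% of all genes, 31.5% higher and 28.7% lower), with a median of -0.06. With agonist 39 did, 10 higher and 29 lower (54.8%, 27.2% higher and 27.6% lower), with a median of -0.05, and 28 members passed in the same direction under both treatments (35.4%, against 45.5% of all genes). With agonist the direction of the set depends on scaling: under TPM 34 passed, 29 higher and 5 lower, with a shift of 0.08 over all genes. Cytosolic ribosomal proteins had 75 of 82 higher in KO with vehicle, with a median of 0.27, and the summed macrophage markers were lower in KO, as given above; their part in these differences was not tested. The genes named next kept their direction and call under TPM.

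Cox7a2l was higher in KO cells, at 200 and 203 against 151 and 155 FPKM with vehicle (0.40 ± 0.03, adjusted p = 6.52e-07) and at 217 and 214 against 172 and 179 with agonist (0.30). Its ratio to Cox7a2, the ubiquitous liver-type subunit, was 1.32 and 1.35 in WT vehicle and 1.94 and 1.98 in KO vehicle libraries. Cox7a1, the heart and muscle form, was low and lower in KO, at 1.72 and 1.83 against 3.59 and 3.08 FPKM (-0.64 ± 0.06, adjusted p = 1.23e-05) and with agonist at 1.94 and 1.81 against 3.30 and 3.20 (-0.56). A pair of accessory subunits of complex I went down with both treatments, Ndufb2 (32.6 and 28.5 against 47.0 and 44.8 FPKM with vehicle, -0.57, and -0.34 with agonist) and Ndufa12 (35.5 and 37.8 against 51.9 and 49.2, -0.45, and -0.38 with agonist). The groups do not overlap for any of these 4 genes, and the share of all genes without overlap was not counted for KO against WT. Ndufa4 was higher in KO (85.9 and 86.9 against 68.9 and 67.7 FPKM, 0.34), as was Uqcrh (328 and 331 against 285 and 287, 0.20).

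The 3 genes for the same c subunit of the ATP synthase rotor, which encode 1 mature protein behind different import peptides, did not move together. Atp5g2 was higher in KO than WT with vehicle (160 and 153 against 139 and 131 FPKM, 0.21), Atp5g1 lower (88.1 and 91.5 against 105 and 107, -0.23) and Atp5g3 lower (303 and 307 against 336 and 333, -0.14). Atp5g2 made up 23.0% to 24.3% of the summed FPKM of the 3 genes for WT, 27.1% to 29.1% for KO, 17.9% to 18.9% for ERKO OVX and 22.5% to 24.0% for Ex3a OVX libraries.

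**Figure D4:**
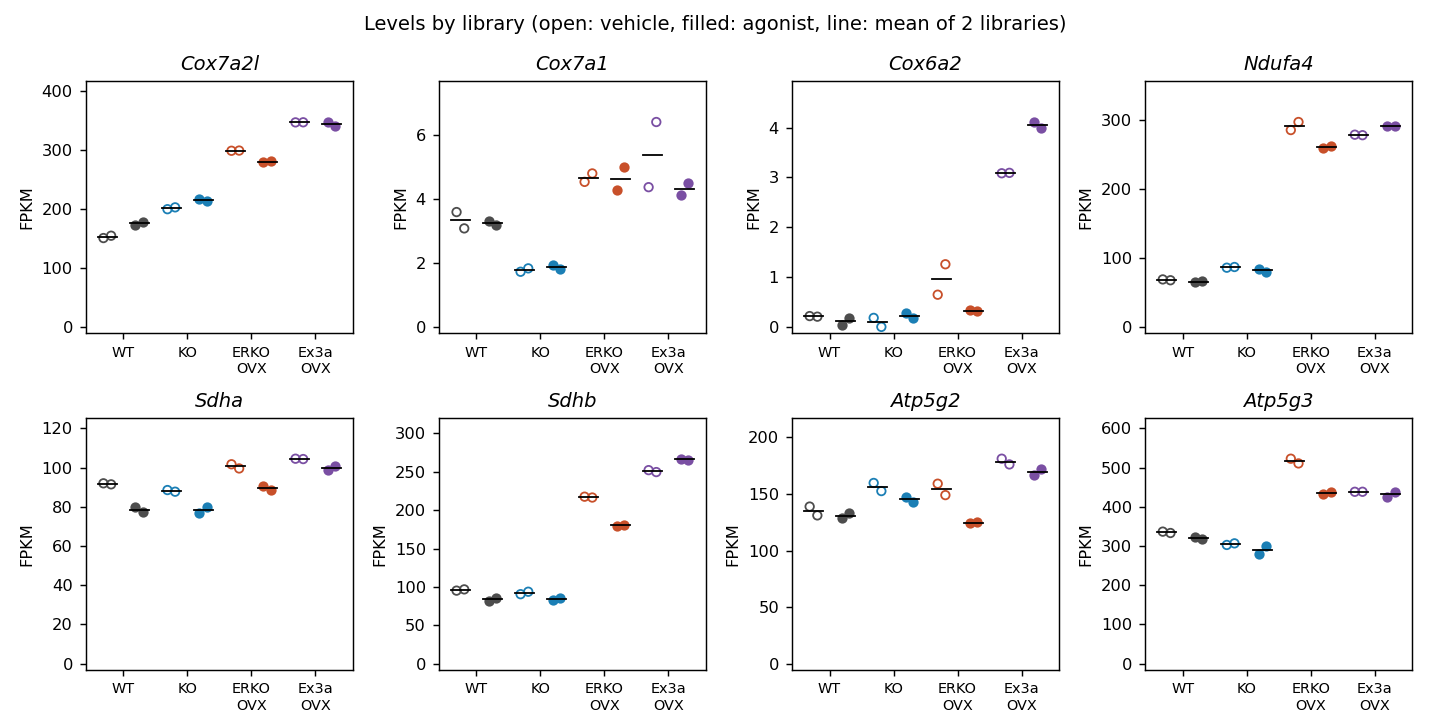
FPKM of 8 subunit genes in each library, by arm; open circles are vehicle, filled circles agonist, and bars the mean of 2 libraries. Ndufa4 lies between 64.4 and 86.9 FPKM in unoperated and between 259 and 297 in ovariectomized libraries, Sdhb parts in the same way while Sdha does not, and Cox6a2 reaches 3.08 to 4.11 FPKM in Ex3a OVX libraries.

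ERKO OVX and KO cells share the receptor label and differ in surgery, estradiol pellet, depth and FPKM sum. They also differ in the dendritic cell, macrophage, neutrophil and mast cell marker sums given above, and in Zbtb46 and Ccr7. The parts of these cannot be told apart. With vehicle the macrophage sum is carried by Csf1r (239 and 237 FPKM in KO, 406 and 404 in ERKO OVX), and Fcgr1 and Mertk were higher too. C1qa and C1qb went the other way (C1qb from 18.9 and 20.2 to 11.7 and 11.6 FPKM), and C1qc overlapped. With vehicle 73 members were higher in ERKO OVX and 1, Atp5s, lower, against 80.9% of all genes called (41.0% higher, 39.9% lower). The median member was 0.73 higher, between 0.68 and 0.79 in each complex, where all genes had 0.01. With agonist 71 were higher and 4 lower (78.6% of all genes, 40.1% higher and 38.5% lower), with a median of 0.54, and the 4 were Ndufb4, Atp5g2, Atp5s and Cox6b2. Ndufa4, a subunit of complex IV that has a hypoxia-induced counterpart in Ndufa4l2, had the largest change, from 85.9 and 86.9 FPKM in KO to 286 and 297 in ERKO OVX with vehicle (1.74 ± 0.04, 3.35-fold) and from 84.3 and 79.9 to 259 and 262 with agonist (1.65). Sdhb (90.5 and 93.7 to 218 and 216 FPKM) changed by 1.23, Cox7a2 by 1.27 and Ndufb2 by 1.24. In all, 9 members were above 1 on the log2 scale with vehicle, the others being Cox7a1, Ndufa5, Ndufb5, Ndufc1 and Ndufc2.

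Genes of 1 complex parted here. Sdha had 88.5 and 87.7 FPKM in KO and 102 and 99.5 in ERKO OVX vehicle libraries (0.19) while Sdhb rose as above, so that the ratio of Sdhb to Sdha was 1.02 to 1.10 in the 8 unoperated, 1.98 to 2.17 in the ERKO OVX and 2.39 to 2.70 in the Ex3a OVX libraries. Ndufs1, the largest core subunit of complex I, was 0.15 higher, against a median of 0.73 over all members. Atp5g2 had a difference of -0.02 while Atp5g1 was 0.84 and Atp5g3 0.76 higher. Cox6a2, the muscle form of subunit 6a, was at 0.00 to 0.27 FPKM in unoperated, 0.65 and 1.26 in ERKO OVX vehicle, 0.33 and 0.32 in ERKO OVX agonist, 3.08 and 3.09 in Ex3a OVX vehicle and 4.11 and 4.00 in Ex3a OVX agonist libraries. It passed the filter through the ovariectomized libraries alone, and 10.3% of its exon bases overlap exons of Itgad. Ndufs5 differed within groups (23.4 and 14.1 FPKM in KO vehicle, 19.0 and 24.8 in WT vehicle), and no agonist response of it passed.

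Transcript length and scaling moved with the ovariectomized difference too. With vehicle, all genes under 1000 bases had a median of 0.21 and those of 4000 or more -0.32, other genes under 1000 bases with a mean of 50 FPKM or more 0.41, and ribosomal proteins 0.28 (58 of 82 higher, 11 lower). Under TPM 67 members passed, 59 higher and 8 lower, with a median of 0.33 where all genes shifted by -0.34. With agonist 64 passed, 50 higher and 14 lower, with all genes at -0.26. Corrected for length, 74 passed with vehicle, 71 higher, with a median of 0.53.

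The pathways around the chain were read from lists of other genes. Cytochrome c1 (Cyc1), which complex III needs and which the symbol rule leaves out, fell with agonist by -0.20 (WT), -0.13 (KO) and -0.32 (ERKO OVX) and rose by 0.19 (Ex3a OVX), each past the threshold. Cycs, cytochrome c, rose in KO (0.11) and Ex3a OVX (0.16), fell in ERKO OVX (-0.14) and had 0.08 in WT, not past the threshold. For the lists that follow, the shares of all genes called were 57.8% (WT), 51.3% (KO), 37.5% (ERKO OVX) and 37.3% (Ex3a OVX). Of 13 genes of the tricarboxylic acid cycle, WT cells had 7 lower and 4 higher, KO cells 6 and 2, ERKO OVX cells 8 and 1, Ex3a OVX cells 0 and 2. Citrate synthase (Cs) rose in WT (0.18) and KO (0.13) and fell in ERKO OVX (-0.13), while Idh3a of isocitrate dehydrogenase fell in all 3 (-0.33, -0.27 and -0.34). Of 17 glycolysis genes WT cells had 12 lower and 1 higher, KO cells 11 and 2, ERKO OVX cells 13 and 1, Ex3a OVX cells 2 and 2. Pkm, the last enzyme of glycolysis, changed by -0.32, -0.41, -0.43 and -0.03 in that order, and Hk2, an inducible hexokinase, by 0.14, 0.19, 0.38 and 0.00, the last of each not past the threshold.

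Assembly factors are read against the same shares of all genes. Of 13 tested complex I assembly genes WT cells had 2 higher and 2 lower, KO cells 2 and 0, ERKO OVX cells 1 and 2, Ex3a OVX cells 3 and 0. Acad9 rose in all 4 arms (0.36, 0.32, 0.40 and 0.59). Of 30 factors for complexes II to V, WT cells had 2 higher and 5 lower, KO cells 6 and 3, ERKO OVX cells 1 and 5, Ex3a OVX cells 11 and 0. Cox17, the copper chaperone of complex IV, rose in WT (0.51), KO (0.46) and Ex3a OVX (0.40) and had a change of -0.02 in ERKO OVX, and Tmem70, which assembles complex V, rose in the same 3 arms (0.47, 0.46 and 0.25). Of 8 carriers and inhibitors WT cells had 6 lower and 2 higher, KO cells 6 and 1, ERKO OVX cells 7 and 0, Ex3a OVX cells 2 and 2. Ucp2, an inner-membrane carrier, fell in all 4 arms (-0.50, -0.51, -0.46 and -0.38). Atpif1, the inhibitor of ATP hydrolysis by complex V, also fell in all 4 (-0.17, -0.26, -0.38 and -0.15).

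Among 13 tested regulators, WT cells had 4 higher and 3 lower and KO cells 1 and 2, against 57.8% and 51.3% of all genes called. Myc went from 13.9 and 13.9 to 7.07 and 6.65 FPKM in WT and from 8.49 and 8.86 to 4.57 and 4.89 in KO. In ERKO OVX it went from 7.64 and 7.86 to 6.48 and 7.38, and in Ex3a OVX from 14.3 and 14.3 to 10.2 and 9.26. Ppargc1b, a coactivator of respiratory genes at 1.54 to 4.75 FPKM, fell in the first 3 arms (WT -0.56, KO -0.79, ERKO OVX -0.43). It had 0.05 in Ex3a OVX, a difference of 0.47 between the ovariectomized arms. Pprc1, of the same family and at 6.22 to 11.4 FPKM, rose in ERKO OVX (0.16) and had 0.07, 0.00 and -0.13 in WT, KO and Ex3a OVX, not past the threshold. Nrf1 rose in WT (0.16) and fell in Ex3a OVX (-0.30), with 0.06 in ERKO OVX, and the difference between the last pair (-0.36) passed. Gabpa, the DNA-binding subunit of an ETS-family respiratory factor, rose in WT (0.13), and Gabpb1, its partner, in WT (0.20), KO (0.11) and ERKO OVX (0.31). Esrra and Tfam, the estrogen-related receptor alpha and the mitochondrial transcription factor, did not pass in any of the 4 arms, with changes between -0.05 and 0.09.

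Exons of 21 subunit genes overlap exons of another protein-coding gene in the GENCODE M21 annotation, and for Ndufb6, Ndufa13, Uqcrc2, Atp5f1 and Atp5o the overlap covers at least 20% of the exon bases. How the counting treated such reads, strand, or reads shared with processed pseudogenes is not stated in the labels or headers, so levels of these genes are less certain.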

How the data were processed

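RNA-seq values were deposited by the authors as 1 table of FPKM per gene and library (24001 rows, 16 libraries). The labels' protocols name TruSeq RNA libraries and paired-end HiSeq2500 reads, and mm10, STAR, HTSeq, cutadapt, FastQC and DESeq2 are named, without versions, per the submitters' processing notes. The program behind the FPKM is not given there. No counts were used: depth was estimated from the spacing of low FPKM values, so it is approximate.

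After leaving out 1234 rows of small RNAs, taking 6 isolated zeros as missing (0 in subunit genes) and keeping genes with at least 1 FPKM in at least 2 libraries, 11347 genes were fitted as log2(FPKM + 1) with limma 3.58.1 (R 4.3.3; trend and robust options, 1 coefficient per group, 12 samples, 4 residual degrees of freedom), Benjamini-Hochberg adjustment and a threshold of 0.05. The pseudocount of 1 understates changes of low genes. Ovariectomized pairs were averaged into 1 sample each. Fitting was tested on simulated data drawn with the spread of the unoperated groups. That could not test whether the ovariectomized groups vary alike. Genes named with values follow a rule by complex: the up to 3 largest called changes per comparison, complex II, isoform sets, core subunits of complex I, the highest and lowest mean levels, and members against their complex's direction; Ndufs5 and Ndufa11 and other genes with printed promoters or wide spread were chosen after their values were seen. The members and lists were chosen with earlier results of these data known. The values of 1 complex I gene are not reported here. Replicate numbers did not pair the samples. Alternatives covered pseudocount, filter, scaling, centring, separate libraries, the replicate block, each library left out, and, chosen after seeing the data, corrections for length and mean level.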

Additional observations from a re-analysis of the deposited data

Results flagged for a closer look

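The agonist response differed between the ovariectomized arms, by the interaction term of limma, for 60 of 79 subunit genes, all higher in Ex3a OVX, against 31.3% of all genes called (16.6% higher). The count was 32 under TPM and 33 corrected for mean level. Named here are 14 of the 60. In complex I the difference, Ex3a OVX minus ERKO OVX, was 0.59 for Ndufb4, 0.57 for Ndufb6 and 0.55 for Ndufc1 on the log2 scale. In complex II it was 0.41 for Sdhd and 0.35 for Sdhb. Complex III had 0.47 for Uqcr11, 0.43 for Uqcr10 and 0.39 for Uqcrq. Complex IV had 0.86 for Cox6a2, 0.47 for Cox5a and 0.36 for Cox6a1, and complex V 0.42 for Atp5d, 0.36 for Atp5e and 0.35 for Atp5o. Cox6a2 passed the filter on low values through the ovariectomized libraries alone and lost its call at a pseudocount of 0.1 FPKM, and Cox6a1 lost its call corrected for mean level (0.15). Ribosomal protein genes, in sum, also fell in ERKO OVX (64126.5 and 64001.5 to 53150 and 53025.5 FPKM). They did not fall in Ex3a OVX (69125.7 and 69120.4 to 70732.6 and 70258.6). Each arm enters with 1 averaged sample per treatment, the spread comes from the unoperated groups, and no explanation was tested.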

How the results depend on the processing

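Over 12 comparisons and their alternatives, 293 counts of members stayed within 1.5 times the reported count, 15 moved further and 3 turned in direction. Of 4052 values of named genes 3958 kept their direction and call, 93 lost the call and 1 turned: Sdhc, KO against WT with agonist, at 0.0139 under TPM. Under TPM the counts were 57 for the WT response, 16 with the direction turned for the Ex3a OVX response, 34 with the direction turned for KO against WT with agonist, 11 for the KO minus WT difference and 32 for the Ex3a OVX minus ERKO OVX difference. Corrected for mean level these were, in the same order, 43, 11, 35 (18 higher, 17 lower), 3 and 33. Corrected for transcript length the Ex3a OVX response gave 15. With 16 separate libraries the Ex3a OVX response gave 41 and the KO minus WT difference 3. The cause was not tested. Leaving out 1 library gave 15 to 23 members for the KO response, 20 to 32 for WT, 64 to 68 for ERKO OVX, 19 to 28 for Ex3a OVX and 0 to 1 for the KO minus WT difference. With the replicate block the KO minus WT difference gave 1, the WT response 29, KO 22, ERKO OVX 65 and Ex3a OVX 21; same-numbered libraries did not deviate together (r of -0.23 and -0.17 between WT and KO groups), and with the KO numbers crossed the KO response gave 24, KO against WT 40 and 40, and the difference 0. Without the filter the Ex3a OVX response gave 16 and vehicle Ex3a OVX against ERKO OVX 29.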
